A study of Mus musculus with 9 samples.

Results

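The insulin-like growth factor (IGF) system of the mouse testis was read here as 10 genes listed by name: the ligands Igf1 and Igf2, the receptors Igf1r and Igf2r, and the binding proteins Igfbp2 to Igfbp7. These are 10 of 18193 genes with a probe set of their own, and 28 of the 45037 probe sets tested. The arrays held testis RNA of 5 Tmem203 null samples and 4 wild-type (WT) control samples, from mice that were all on the C57BL/6J background, untreated and 24 weeks of age. Tmem203 encodes a membrane protein of the endoplasmic reticulum, and in the targeted allele, made in C57BL/6 embryonic stem cells, the translation start and some of the 5′ UTR are deleted and an FRT site is left where the selection cassette was removed. One Affymetrix mouse array was used per sample. A gene is read on it by 1 or more probe sets, and the values are log2 signals that the authors normalised by Robust Multichip Average. The left and right testis of a mouse were harvested separately and the labels do not say whether each array is another animal, so the p-values refer to the spread among these samples only, which may be technical in part.

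IGF1 and IGF2 are small secreted proteins that resemble insulin. Both act through IGF1R, a receptor tyrosine kinase that signals through IRS adaptors to the PI3K-AKT and RAS-MAPK cascades, whereas IGF2R has no kinase and takes IGF2 to the lysosome. The IGF binding proteins hold the ligands in the circulation and in tissue, and proteases release them. In the testis, IGF1 is made by somatic cells, among them Sertoli and Leydig cells, and the pathway is known for its part in Sertoli cell number and in Leydig cell steroid production.

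Of the 10 genes, 5 were higher in Tmem203 null testes at an adjusted p under 0.05 (limma, Benjamini-Hochberg over all probe sets): Igf1, Igf2, Igf1r, Igfbp3 and Igfbp7. None was lower, and none had an unadjusted p under 0.05 in that direction. Igfbp1, the remaining binding protein of the numbered series, was not on the list and is given with the other pathway genes. Over the 16180 genes with a detected probe set, 8.03% passed as higher and 6.82% as lower by the same rule, which takes the probe set with the smallest p. With a change of at least 1.5-fold as well, 3 members remained (Igf1, Igf1r and Igfbp3), all higher, where 1.44% of genes passed as higher and 1.18% as lower. The members' median log2 difference was 0.42, with a range of -0.11 to 1.05, against a median of -0.03 over all genes. These 3 genes are also on lists that the study drew from the same arrays, so their direction is not independent evidence.

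The sequence just before the annotated start is shown for these 3 genes, so that their upstream regions can be set side by side. Each is the 250 bases before a start in RefSeq (GRCm38.p6), in the direction of transcription. The Igf1 window is chr10:87860861-87861110 on the plus strand, the Igf1r window chr7:67952007-67952256 on the plus strand, and the Igfbp3 window chr11:7213924-7214173 on the minus strand. For Igf1 and Igfbp3 the start used lies inside the gene's annotated span. Capitals mark the GC box (GGGCGG or CCGCCC), the TATA motifs (TATAAA or TTTATA, and TATATA) and the core bound by NFAT factors (GGAAA or TTTCC), searched on both strands.
Igf1: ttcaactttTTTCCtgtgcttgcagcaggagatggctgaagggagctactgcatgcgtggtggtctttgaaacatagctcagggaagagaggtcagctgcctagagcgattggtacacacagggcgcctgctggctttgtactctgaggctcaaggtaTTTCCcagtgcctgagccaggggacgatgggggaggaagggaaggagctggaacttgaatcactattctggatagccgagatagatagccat
Igf1r: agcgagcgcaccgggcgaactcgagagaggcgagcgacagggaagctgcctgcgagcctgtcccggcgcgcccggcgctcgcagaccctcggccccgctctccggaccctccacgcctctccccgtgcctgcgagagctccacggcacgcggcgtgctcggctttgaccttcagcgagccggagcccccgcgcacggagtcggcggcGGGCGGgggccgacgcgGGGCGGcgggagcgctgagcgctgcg
Igfbp3: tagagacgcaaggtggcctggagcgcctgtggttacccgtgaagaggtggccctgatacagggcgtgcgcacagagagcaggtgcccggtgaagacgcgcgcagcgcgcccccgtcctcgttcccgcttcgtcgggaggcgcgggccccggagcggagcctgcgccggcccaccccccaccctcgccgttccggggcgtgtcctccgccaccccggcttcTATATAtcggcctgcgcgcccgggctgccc

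These 3 windows differed in composition. The G and C content was 52.8% for Igf1, 77.6% for Igf1r and 73.2% for Igfbp3, where the median over 32851 windows of the same length was 52.4% and the quartiles 45.2% and 61.2%. The GC box was found 2 times before Igf1r and not before Igf1 or Igfbp3, and 32.7% of all windows hold it. The Igfbp3 window held TATATA once, at position -30 from the start, against 5.25% of all windows, and none of the 3 held TATAAA, against 12.4%. The NFAT core was found 2 times before Igf1 and not before Igf1r or Igfbp3, and it is present in 55.6% of all windows. The CCAAT box (CCAAT or ATTGG) was also searched and is not marked in capitals. It was found 1 time before Igf1 and not before Igf1r or Igfbp3, and 33.8% of all windows hold it. No motif was shared by the 3 windows among those searched. A match describes these letters only.

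The targeted gene was examined first. Tmem203 had a log2 signal of 9.11 ± 0.03 (SD, n = 5) in null testes and 9.81 ± 0.13 (SD, n = 4) in WT testes, a difference of -0.70 (SE 0.06, adjusted p = 2.87e-04, limma). Every null array lay below every WT array. Where this probe set lies relative to the deleted part is not given in the sources used here. The array medians lay between 6.96 and 7.05. The difference between the 3′ and 5′ control probe sets of Gapdh, a measure of RNA quality, was 0.81 to 0.90 on the log2 scale in null testes and 0.92 to 0.94 in WT testes (two-sided exact permutation test, p = 0.0238), and its part in the results below was not tested.

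**Figure D1:**
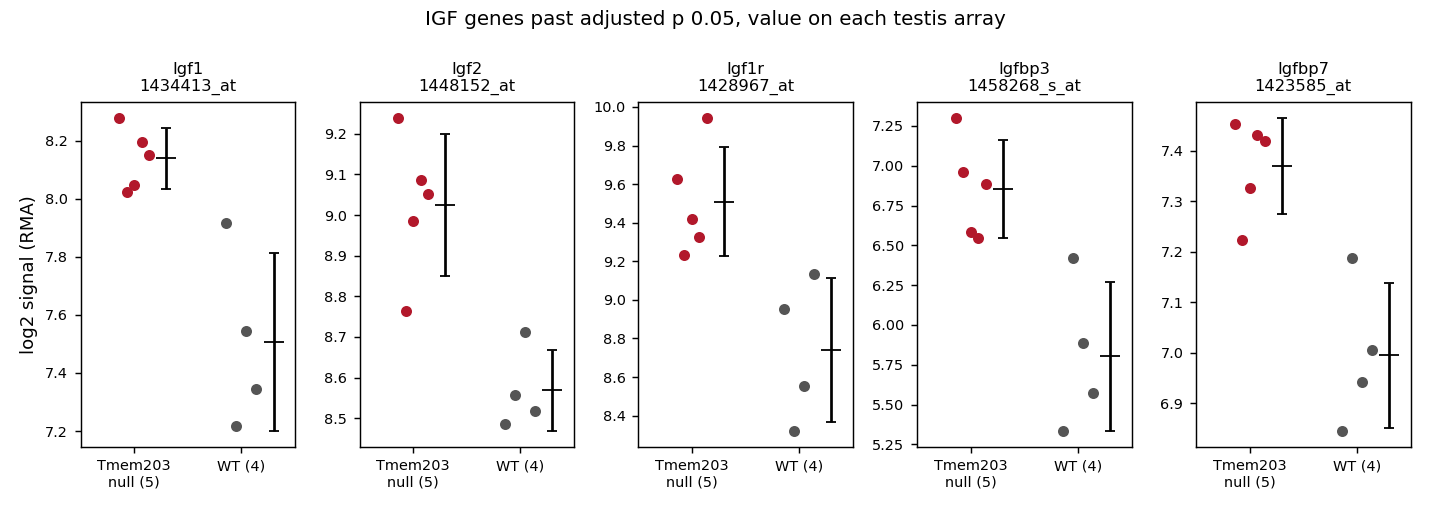
Log2 signal of the probe set with the smallest p for each of the 5 IGF genes that passed, 1 point per array, with Tmem203 null arrays on the left and WT arrays on the right of each panel; the line beside each group is its mean and SD. The null arrays lie above the WT arrays in every panel, and the gap is smallest for Igfbp7 and Igf2.

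Both ligands had a probe set that was higher in null testes, but for Igf1 the 4 probe sets did not change equally. Probe set 1434413_at of Igf1 read 8.28, 8.02, 8.05, 8.20 and 8.15 in null replicates 1 to 5, against 7.92, 7.22, 7.55 and 7.34 in WT replicates 1 to 4. All null arrays were above all WT arrays, with WT replicate 1 nearest to them. The means were 8.14 ± 0.11 in null testes and 7.51 ± 0.31 in WT testes (SD), a log2 difference of 0.63 (SE 0.13, 95% interval 0.35 to 0.91, adjusted p = 0.0149) or 1.55-fold.

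The remaining Igf1 probe sets did not pass. Probe set 1437401_at read 8.76, 8.29, 8.27, 8.29 and 8.56 in null testes, against 8.09, 7.88, 8.28 and 7.77 in WT testes, with only WT replicate 3 inside the null range (0.43, SE 0.13, adjusted p = 0.0742). Probe set 1419519_at differed by 0.45 (SE 0.16, adjusted p = 0.129), with overlapping arrays. The brightest, 1452014_a_at, read 9.49, 9.30, 9.25, 9.47 and 9.59 in null testes, against 9.40, 9.46, 9.73 and 9.20 in WT testes. Here the arrays of both genotypes were mixed, the highest was WT replicate 3, and the difference was -0.03 (95% interval -0.26 to 0.21, adjusted p = 0.916).

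The inequality between Igf1 probe sets was tested on the per-array difference from the brightest one. The change of 1434413_at exceeded that of 1452014_a_at by 0.66 and that of 1437401_at exceeded it by 0.46 (two-sided exact permutation test, p = 0.00794 each, the smallest that 126 arrangements allow, 0.0423 after adjustment over 16 pairs in all members). For 1419519_at the excess was 0.48 (exact permutation p = 0.0635, adjusted 0.169). The 3 probe sets without the suffix _a_at gave differences between 0.43 and 0.63, and the brightest differed from 2 of them by this test. Which Igf1 transcripts each probe set reads was not analysed here.

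Igf2, the fetal growth factor that is imprinted in the mouse, had 1 detected probe set. It read 9.24, 8.76, 8.98, 9.09 and 9.05 in null testes, against 8.49, 8.56, 8.71 and 8.52 in WT testes. The lowest null array, replicate 2, lay just above the highest WT array, replicate 3. The means were 9.03 ± 0.17 in null testes and 8.57 ± 0.10 in WT testes (SD), a log2 difference of 0.46 (SE 0.09, 95% interval 0.25 to 0.66, adjusted p = 0.0149), or 1.37-fold, which is under the 1.5-fold threshold. A second Igf2 probe set stayed below a log2 signal of 5, the detection limit used, on every array.

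The 2 receptors differed in their calls. For Igf1r, the signalling receptor, probe set 1428967_at read 9.63, 9.23, 9.42, 9.32 and 9.95 in null testes, against 8.95, 8.32, 8.55 and 9.14 in WT testes. The null arrays were all higher, and WT replicate 4 came close to null replicate 2. The means were 9.51 ± 0.28 in null testes and 8.74 ± 0.37 in WT testes (SD), a difference of 0.77 (SE 0.18, 95% interval 0.36 to 1.18, adjusted p = 0.032) or 1.70-fold. This call was lost when any 1 of null replicates 1, 3, 4 and 5 or of WT replicates 2 and 3 was left out (adjusted p 0.0511 to 0.0886), while the difference stayed between 0.63 and 0.82 in those fits.

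The other Igf1r probe sets gave smaller differences that did not pass. Probe set 1452982_at differed by 0.47 (adjusted p = 0.152) and 1452108_at by 0.14 (adjusted p = 0.204), both with overlapping arrays. Probe set 1426565_at differed by 0.22 (adjusted p = 0.116), with null arrays at 6.74 to 6.97 and WT arrays at 6.46 to 6.72, which do not overlap. The change of 1452108_at was smaller than that of 1428967_at, the brightest, by 0.63 (exact permutation p = 0.00794, adjusted 0.0423), and that of 1426565_at by 0.55 (exact permutation p = 0.0159, adjusted 0.0636). Another Igf1r probe set was below the detection limit on every array.

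Igf2r, the scavenger of IGF2 and a carrier of lysosomal enzymes, did not pass on either probe set. Probe set 1424111_at ranged from 8.78 to 9.01 in null testes and from 8.64 to 9.01 in WT testes, a difference of 0.08 (95% interval -0.10 to 0.26, adjusted p = 0.592). For 1424112_at the difference was 0.02 (95% interval -0.16 to 0.21, adjusted p = 0.903). A further probe set is annotated to both Igf2r and the antisense RNA Airn, and as its signal cannot be assigned to 1 of them it was not counted as a member.

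Igfbp3, the main carrier of IGFs in blood, showed the largest difference among the members on both of its probe sets. Probe set 1423062_at read 8.04, 7.83, 7.26, 7.33 and 7.62 in null testes, against 5.83, 7.22, 6.48 and 6.21 in WT testes. Null replicate 3 and WT replicate 2 nearly met, and the other WT arrays lay well below. The means were 7.61 ± 0.33 in null testes and 6.44 ± 0.59 in WT testes (SD), a difference of 1.18 (SE 0.26, 95% interval 0.61 to 1.75, adjusted p = 0.022). The call of this probe set was lost without null replicate 1, null replicate 5 or WT replicate 4 (adjusted p 0.0529 to 0.0554).

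Probe set 1458268_s_at of Igfbp3 read 7.30, 6.96, 6.59, 6.55 and 6.88 in null testes, against 5.33, 6.42, 5.89 and 5.57 in WT testes. The order of the WT arrays was the same as on the other probe set, with replicate 2 highest and replicate 1 lowest. The means were 6.86 ± 0.31 in null testes and 5.80 ± 0.47 in WT testes (SD), a difference of 1.05 (SE 0.22, 95% interval 0.57 to 1.53, adjusted p = 0.0175), or 2.07-fold. This call was kept with each array left out in turn.

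Igfbp7, a secreted protein that binds IGFs only weakly, was higher in null testes by a small amount. Probe set 1423585_at read 7.45, 7.22, 7.33, 7.43 and 7.42 in null testes, against 6.84, 7.19, 6.94 and 7.0 in WT testes, so that null replicate 2 and WT replicate 2 lay side by side with no overlap. The means were 7.37 ± 0.10 in null testes and 6.99 ± 0.14 in WT testes (SD), a difference of 0.38 (SE 0.08, 95% interval 0.20 to 0.55, adjusted p = 0.0177), or 1.30-fold. The brighter probe set 1423584_at averaged 11.77 ± 0.09 in null testes and 11.48 ± 0.15 in WT testes (SD), also without overlap, but missed the threshold (0.29, adjusted p = 0.0513). The third, 1437804_at, differed by 0.26 with overlapping arrays (adjusted p = 0.201).

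The other 4 binding proteins did not pass on any probe set. Igfbp2, another IGF carrier of serum and tissue, averaged 8.56 ± 0.05 in null testes and 8.47 ± 0.29 in WT testes (SD), a difference of 0.09 (95% interval -0.17 to 0.34, adjusted p = 0.691), and its WT arrays were more spread than its null arrays. The 6 probe sets of Igfbp4, an inhibitor of IGF action that is cleaved by the protease PAPP-A, differed by -0.10 to 0.17 (adjusted p 0.372 to 0.801), with the genotypes overlapping on each. Igfbp6, which prefers IGF2, differed by -0.11 (95% interval -0.35 to 0.13, adjusted p = 0.582).

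Igfbp5, a binding protein that also attaches to extracellular matrix, was the most variable member. Probe set 1452114_s_at read 8.20, 6.94, 6.60, 6.06 and 7.02 in null testes, against 6.70, 6.45, 7.23 and 5.15 in WT testes. Null replicate 1 stood above and WT replicate 4 below all others, and the genotypes overlapped. The difference of 0.58 has a 95% interval of -0.44 to 1.6 (adjusted p = 0.495), an interval that includes both 0 and the difference found for Igfbp3. The second Igfbp5 probe set differed by 0.17 (adjusted p = 0.559).

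**Figure D2:**
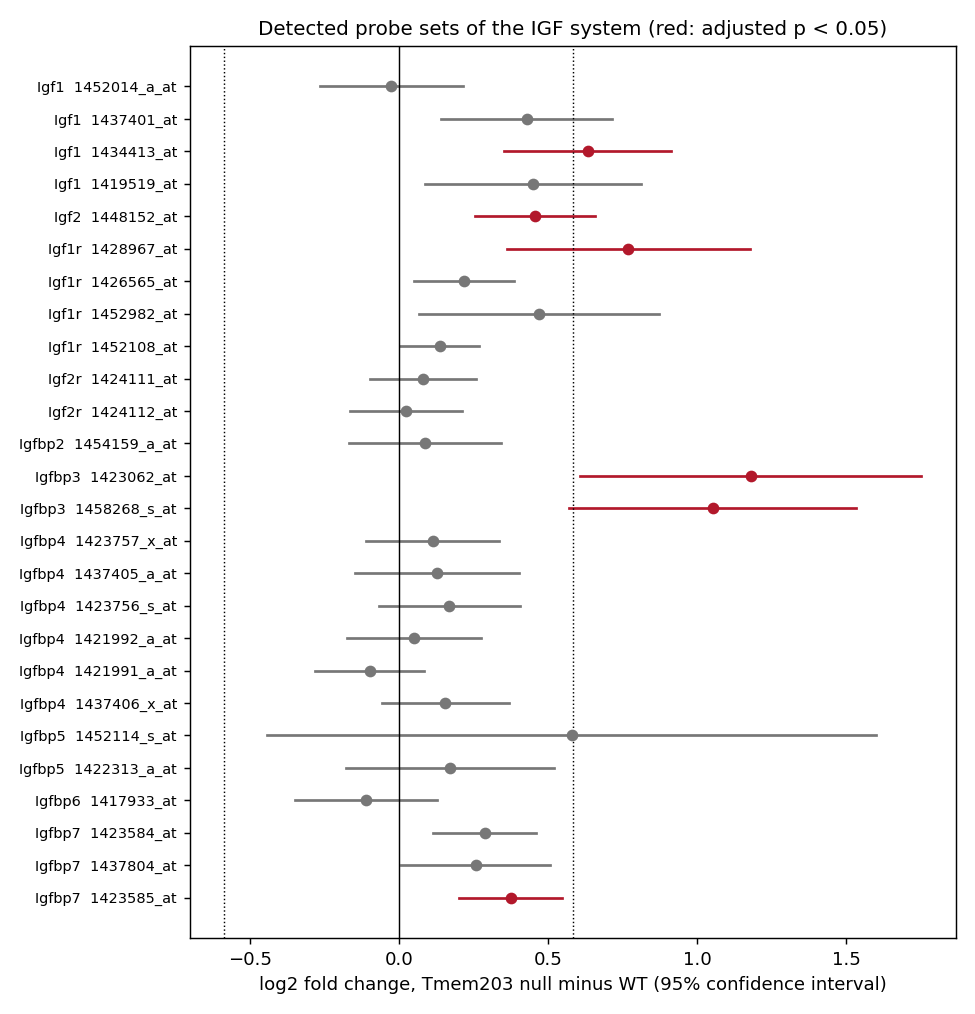
Log2 difference, Tmem203 null minus WT, of each of the 26 detected probe sets of the IGF genes, with its 95% interval from limma; red marks an adjusted p under 0.05 and the dotted lines a 1.5-fold change. The intervals of the 2 Igfbp3 probe sets lie farthest to the right, those of the 6 Igfbp4 probe sets cross 0, and the Igf1 probe sets divide between 1 near 0 and 3 above it.

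Counted over all 26 detected probe sets of the members, 23 had a higher mean in null testes and 3 a higher mean in WT testes. Of these, 6 passed as higher and 0 as lower (limma), where 5.7% of detected single-gene probe sets passed as higher and 4.23% as lower. At an unadjusted p under 0.05, 13 were higher and 0 lower, where 15.3% of such probe sets were higher and 13.5% lower. On 8 of the 26 every null array was above every WT array, where this holds for 7.82% of detected single-gene probe sets. None had every null array below every WT array, where 7.76% do. Probe sets of 1 gene may read the same RNA in part and are not taken as independent of each other.

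The arrays contributed unevenly. Null replicate 1 was the highest of the 9 arrays on 17 of the 26 probe sets, against 15.4% of all detected single-gene probe sets. WT replicate 4 was the lowest on 12 of 26, against 12.4% of all, and WT replicates 1 and 2 on 6 each. The number of probe sets with a higher mean in null testes ranged between 21 and 24 when each array was left out in turn, and was 22 without null replicate 1 and 21 without WT replicate 4.

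**Figure D3:**
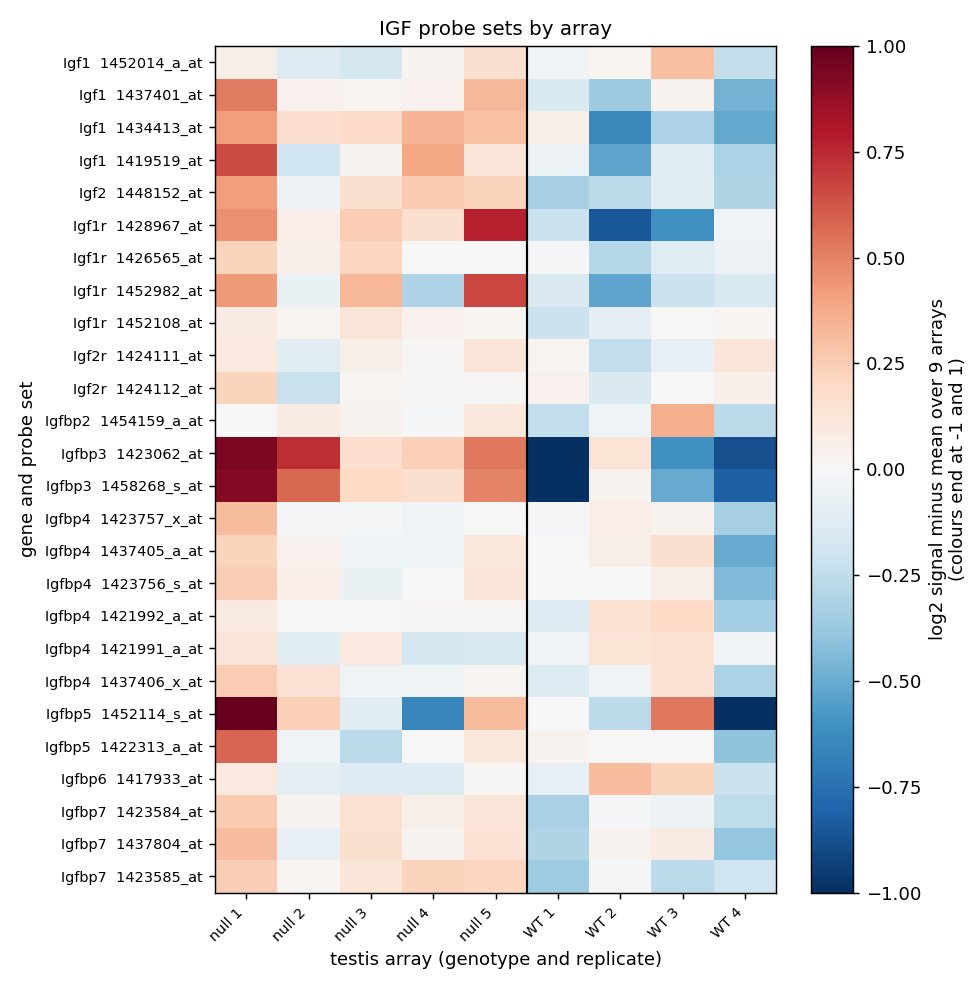
Log2 signal of the 26 detected IGF probe sets on each array, centred on the mean of the 9 arrays, with Tmem203 null arrays on the left and WT arrays on the right. Null replicate 1 has the highest value on 17 probe sets, WT replicate 4 has the lowest on 12, and most Igf1, Igf1r, Igfbp3 and Igfbp7 probe sets are higher in the null arrays.

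Markers of the cells of the testis also moved with genotype. These are whole-testis samples, in which fewer cells of a type and less RNA per cell cannot be told apart. Markers were called by the rule under which 8.03% of all genes passed as higher and 6.82% as lower. The mean log2 signal of the measured Sertoli cell markers was 11.40 to 11.56 in null testes and 11.14 to 11.34 in WT testes, and 6 of 11 passed as higher and 0 as lower, among them Sox9 (0.38) and Inha, which encodes a subunit of inhibin (0.25). For Leydig cells it was 11.81 to 12.20 in null testes and 11.37 to 11.95 in WT testes, with 3 of 5 higher. They included Cyp11a1, the first enzyme of steroid synthesis (0.50), on a probe set that averaged 7.45 in null testes and 6.94 in WT testes. Macrophage markers had 2 of 8 higher, spermatogonial markers 2 of 7 higher, and fibroblast markers 1 higher, Pdgfra (0.75), and 1 lower, Lum (-0.49), of 7.

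None of the markers of peritubular cells (7 measured), lymphocytes (5), spermatocytes (8), round spermatids (5) or elongating spermatids (8) passed in either direction. With 8.03% of all genes higher and 6.82% lower, a list of 5 to 8 markers is too short for 0 calls to set it apart. Elongating spermatid markers averaged 14.22 to 14.27 in null testes and 14.24 to 14.27 in WT testes, close to the highest signal of any array (14.77 to 14.79), where a difference may not be measurable. Not all of them lay so high on the probe set of smallest p. Odf1 averaged 11.91 in null and 11.99 in WT testes, Akap4 13.73 and 13.76, and Gapdhs 13.77 and 13.76. Of the endothelial markers 1 of 7 was lower. Among tissues next to the testis, no epididymal marker passed (2 of 5 measured, Lcn5 and Adam7 not detected), and of seminal vesicle markers 2 were higher and 1 lower, with Svs2 and Svs3a not detected. Adipocyte markers averaged 7.8 to 8.14 in null testes and 7.93 to 8.92 in WT testes, with WT replicate 3 highest, and 0 of 3 passed. Null replicate 1, the array highest for most IGF probe sets, also had the highest mean for Sertoli cell, fibroblast and macrophage markers (11.56, 9.51 and 9.42). The same held for endothelial and spermatogonial markers (7.07 and 9.76). Its mean was the lowest of all arrays for spermatocyte, round spermatid and elongating spermatid markers (12.36, 12.87 and 14.22). The part of these cell types in the differences of the IGF genes was not tested.

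The genes whose profiles lay closest to the 3 members past 1.5-fold were listed by the root mean square difference between profiles over the 9 arrays, each centred on its mean, as a description. Closest to Igf1 were Maf and Klf13, both transcription factors, at 0.0975 and 0.0989, where the Igf1 profile itself has a root mean square of 0.368. Closest to Igf1r were the kinase gene Wnk3 at 0.0997 and the death receptor gene Tnfrsf21 at 0.127 (0.477 for Igf1r itself). Igfbp3 had no profile as near, with Klrb1a, a receptor gene of natural killer cells, at 0.214 and Tnfrsf12a, the receptor for TWEAK, at 0.229 (0.623 for Igfbp3 itself). The points share the same 9 arrays.

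Beyond the members, 68 other genes of the pathway were listed and 56 had a detected probe set of their own. Of these, 7 were higher in null testes, 7 lower and 42 did not pass, where 8.03% of all genes passed as higher and 6.82% as lower, and their median difference was 0.01, against -0.03 over all genes. These counts take for each gene the probe set at which p was smallest. Ghr and Gsk3b, counted as lower, each have another probe set of opposite sign with an unadjusted p under 0.05, and without them 7 genes were higher and 5 lower of 54. Htra1, Ghr and Rptor are on the study's own lists from these arrays.

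**Figure D4:**
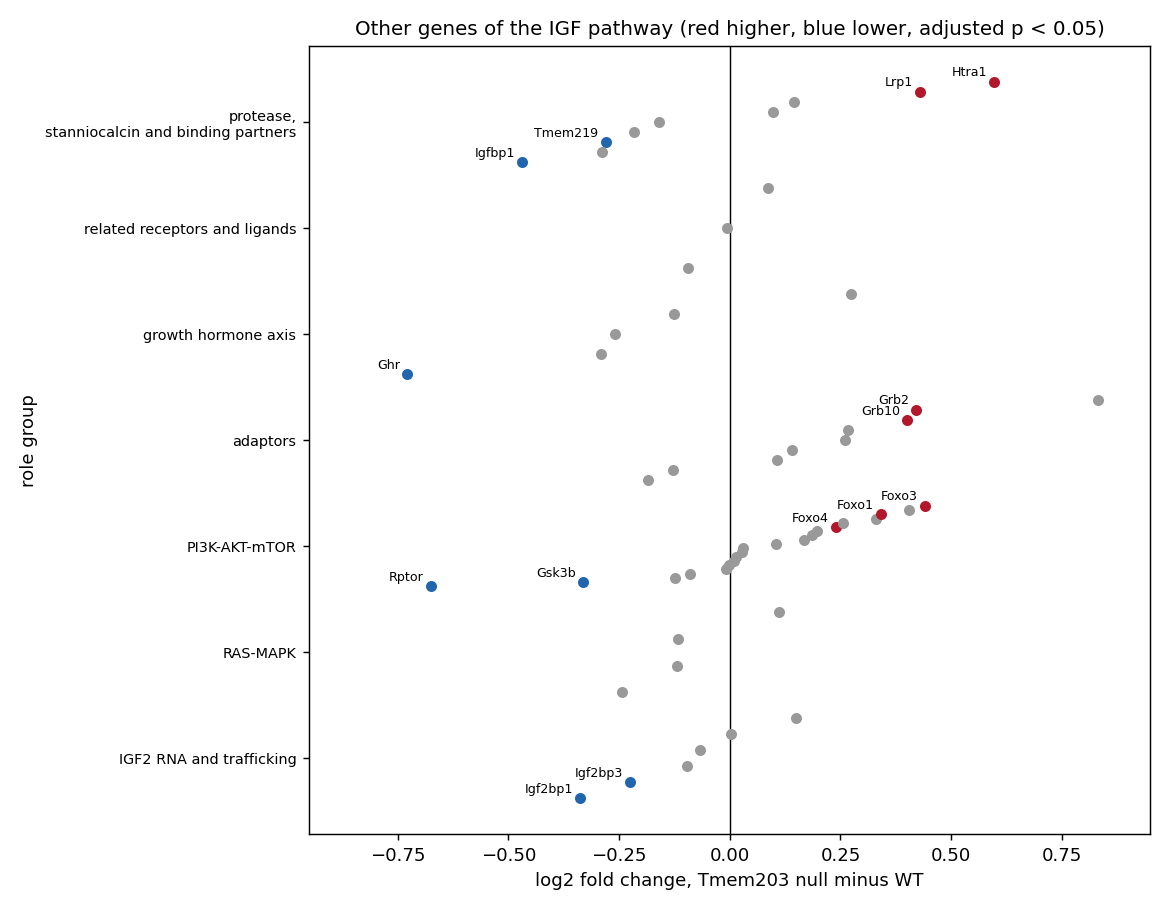
Log2 difference, Tmem203 null minus WT, of the 56 measured genes of the pathway list by role, 1 point per gene through the probe set with the smallest p, with red points for higher and blue points for lower genes at an adjusted p under 0.05 and grey points for the rest. The 7 higher and 7 lower genes are spread over several roles, Ghr and Rptor are the lowest points, and Ghr and Gsk3b have other probe sets of opposite sign that are not drawn.

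The counts by role that follow are a description. Over all genes 8.03% passed as higher and 6.82% as lower, and whether any role differed from these shares was not tested. Among binding partners and proteases, 2 of 9 genes were higher and 2 lower. Htra1, a secreted serine protease that cleaves IGF binding proteins, read 10.33, 9.95, 9.91, 10.09 and 10.15 in null testes, against 9.40, 9.37, 9.93 and 9.27 in WT testes, with only WT replicate 3 reaching into the null range (0.60, adjusted p = 0.0253). Its other probe set gave 0.63 (adjusted p = 0.0293). Lrp1, an endocytic receptor that binds IGFBP3, was higher by 0.43 (adjusted p = 0.0252), although its other probe set differed by 0.06. Tmem219, which encodes another IGFBP3 receptor, was lower on 1 probe set (-0.28, adjusted p = 0.0356) and had 0.18 and 0.07 on the others. Igfbp1, a binding protein made mainly by the liver, had 1 probe set, which was lower (-0.47, adjusted p = 0.0462). All 4 of these calls were lost in some fits that left out 1 array (up to an adjusted p of 0.128, for Igfbp1).

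Upstream of Igf1, 1 of 5 genes of the growth hormone axis passed, on 1 of its 2 probe sets. Ghr, the growth hormone receptor, read 8.12, 8.29, 8.15, 8.23 and 8.11 in null testes, against 8.78, 8.76, 9.0 and 9.10 in WT testes, a clear separation with a difference of -0.73 (SE 0.08, adjusted p = 7.34e-04). The second Ghr probe set differed the other way without passing (0.33, adjusted p = 0.142), so no direction is given for the gene as a whole. Jak2, the kinase attached to that receptor, differed by 0.27 (adjusted p = 0.0649), with 0.33 on its other probe set. Stat5a, a factor that JAK2 activates, differed by -0.26 (adjusted p = 0.0856), with -0.05 on its other, brighter probe set. Of the related receptors and ligands 0 of 3 passed, with the insulin receptor gene Insr at 0.09, the related Insrr at -0.09 and the insulin gene Ins2 at -0.01.

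Downstream of the receptor, 2 of 9 adaptors were higher. Grb2, which links receptors to RAS, was higher by 0.42 (adjusted p = 0.0138), with its other probe set at -0.02. Grb10, which binds the receptor and dampens its signal, was higher by 0.40 on 1 probe set (adjusted p = 0.0219), with 0.04 on the others. The probe set that passed averaged 8.44 in null and 8.03 in WT testes, and the brightest, which did not pass, 11.88 and 11.84. Irs1, the docking protein of IGF1R, read 8.09, 7.84, 7.63, 6.84 and 7.53 in null testes, against 6.59, 6.99, 7.17 and 6.26 in WT testes, a larger mean difference with overlap (0.83, SE 0.25, adjusted p = 0.0731).

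In the PI3K-AKT-mTOR group, 3 of 20 genes were higher and 2 lower through the probe set of smallest p, or 3 and 1 of 19 without Gsk3b. Rptor, the scaffold of mTORC1, read 7.64, 7.77, 7.76, 7.87 and 7.69 in null testes, against 8.40, 8.36, 8.53 and 8.40 in WT testes, with no overlap (-0.67, SE 0.06, adjusted p = 2.77e-04). Its other probe set differed by -0.12. Foxo3, a transcription factor that AKT keeps out of the nucleus, read 12.04 to 12.17 in null testes and 11.53 to 11.80 in WT testes (0.44, adjusted p = 0.00511), and of its others 1 gave 0.45 (adjusted p = 0.0106) and 1 gave -0.11. Its relatives Foxo1 (0.34, adjusted p = 0.0228, with 0.29, 0.03 and 0.01 on probe sets that did not pass) and Foxo4 (0.24, adjusted p = 0.0426) were also higher, but Foxo4 missed the threshold after median centring of the arrays (adjusted p = 0.073). Gsk3b, a kinase that AKT inhibits, passed in opposite directions on different probe sets (-0.33, adjusted p = 0.00491, and 0.32, adjusted p = 0.0338), and its 4 others gave 0.09 to 0.37, so no direction is given for the gene.

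Of the RAS-MAPK cascade, 0 of 4 measured genes passed in either direction, and the kinase gene Braf had -0.24 on 1 probe set (adjusted p = 0.061) and -0.06 to 0.24 on its 6 others, so no direction is given for it. Of genes for IGF2 RNA and its trafficking, 0 of 6 were higher and 2 lower. Igf2bp1, a protein that binds the Igf2 transcript, was lower on 1 probe set (-0.34, adjusted p = 0.0171), with the others at -0.08 and 0.01. Igf2bp3, its relative, was lower on 1 probe set (-0.22, adjusted p = 0.0222), with 5 other probe sets at -0.13 to -0.04. M6pr, the small mannose 6-phosphate receptor, differed by 0.15 (adjusted p = 0.127) on 1 probe set and by -0.10 on the other.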

How the data were processed

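Total RNA of 9 testis samples was hybridised to Affymetrix mouse arrays. The file holds log2 signals per probe set, deposited after the authors had run Robust Multichip Average (background adjustment, normalization by quantiles and summary over probes). The scans were not used here, so that these steps could not be varied, and no scan dates were given in the sources used here, so that batches were not tested. The submitters' processing notes name limma without a version.

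Differences between null and WT arrays were fitted with limma 3.58.1 (R 4.3.3, functions lmFit and eBayes). Benjamini-Hochberg adjustment ran across 45037 probe sets, with 64 manufacturer's controls excluded. Detection required a log2 signal of 5 or more on any array, and genes were named for the 34945 probe sets with 1 symbol in the platform annotation, of which 34741 were matched through Entrez identifiers to RefSeq (GRCm38.p6). A gene was called at an adjusted p under 0.05, with and without a 1.5-fold change, and is represented by the detected probe set of smallest p. All members and Tmem203 are named, with up to 3 other pathway genes per role and the 2 closest profiles of Igf1, Igf1r and Igfbp3. Beyond these, Igfbp1, Foxo1 and Foxo4 are named because they passed, and cell type markers as examples. The members and lists were chosen with earlier results of these data known. Pairs of probe sets were compared by two-sided exact permutation tests. The procedure was tested on simulated data. Python 3.11.15 served for the promoter search and the plots. Other settings tried were median centring, another round of quantile normalization, other variance models and filters, weights for arrays, replicate number as a blocking factor, leaving out single arrays, treat in limma, a 2-fold threshold and the brightest probe set of each gene. The number of arrays limits the precision. Probe sequences and their transcript positions were not analysed here.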

Additional observations from a re-analysis of the deposited data

Results flagged for a closer look

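A single array stood far from the rest of its group in 5 of 84 groups tested, and chance alone sets apart about 1 in 20 groups. On Igfbp4 probe set 1423757_x_at, null replicate 1 read 8.63 with the next null array at 8.32, a gap of 0.901 of the group's range. On Igfbp4 probe set 1421992_a_at, null replicate 1 read 7.56 with the next null array at 7.49, a gap of 0.786 of the range. On Igfbp4 probe set 1423756_s_at, WT replicate 4 read 7.76 with the next WT array at 8.21, a gap of 0.885 of the range. On Igfbp5 probe set 1422313_a_at, WT replicate 4 read 4.67 with the next WT array at 5.07, a gap of 0.92 of the range. On Tmem219 probe set 1424497_at, WT replicate 1 read 10.57 with the next WT array at 10.71, a gap of 0.946 of the range.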

How the results depend on the processing

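Over all probe sets, 1856 passed as higher and 1511 as lower (55.1% higher). With 1.5-fold and the detection and single-gene filters as well, 286 were higher and 211 lower. Median centring gave a median difference over all probe sets of -0.04, against -0.01, and turned the split to 1381 higher and 1884 lower (42.3% higher). It gave a median log2 difference of -0.0308 for the pathway list, and a further quantile normalization gave -0.0175, against 0.0119. With array weights, 1 member instead of 3 passed with 1.5-fold, as Igf1r missed the adjusted p (0.0528) and Igf1 the fold (0.56 on the log2 scale), and Igfbp1 (0.0997), Tmem219 (0.0629) and Foxo1 (0.0505) lost their calls. With a 2-fold threshold and the same filters, 34 higher and 39 lower probe sets and 1 member remained. With limma's treat against 1.5-fold, 11 higher and 33 lower probe sets passed, 11 and 26 under the filters, 0 members and 0 pathway genes (unadjusted, 1 member and 0 pathway genes), and the pathway median was 0.106 because other probe sets were chosen. Through the brightest probe set of each gene, 3 members were higher (without Igf1 and Igfbp7), 5 pathway genes were higher and 4 lower, and the pathway median was 0.0423.

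The labels do not say whether the replicate numbers pair the samples. Deviations of same-numbered arrays correlated at -0.0824, 0.124, -0.0671 and 0.0397, and so few pairs cannot settle it. Null replicate 2 was closest to WT replicate 2, and null replicates 1, 3 and 4 to WT arrays of another number. With the number as a block, 645 probe sets were higher and 529 lower, 1 member passed (with and without 1.5-fold), as did 2 higher and 3 lower pathway genes. Igf1 kept its call, and Igf2 (adjusted p = 0.0876), Igf1r (0.0552), Igfbp3 (0.0699 and 0.0715) and Igfbp7 (0.125) did not. Null replicate 5 has no WT array of its number and adds nothing to this fit.

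With each array left out in turn, 998 to 2173 probe sets were higher and 910 to 1492 lower, 198 to 342 and 200 to 233 with 1.5-fold and the filters. Members passing numbered 4 to 5, or 1 to 3 with 1.5-fold, and 0 were lower. Pathway genes numbered 2 to 8 higher and 4 to 7 lower, with a median of 0.0154 to 0.0574. Igf1, Igf2, Igfbp7 and the Igfbp3 probe set 1458268_s_at kept their calls in all 9. Igf1 probe set 1437401_at passed without WT replicate 3 (adjusted p = 0.0365), and Igfbp7 probe set 1423584_at without WT replicate 2 (0.0487) or WT replicate 3 (0.0413). Of the pathway genes, Igfbp1, Tmem219, Foxo4, Htra1, Foxo1, Igf2bp3, Lrp1 and Grb10 each lost the call in at least 3 of these 9 fits, and Ghr, Grb2, Rptor, Gsk3b, Foxo3 and Igf2bp1 in 0. Irs1 passed without null replicate 4 (0.0229). The causes were not tested.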
